A study of Homo sapiens with 12 samples.

Results

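Levels of 8 genes with known roles in particular lineages were followed across wild-type HEK293 cells and HEK293 cells whose label gives a knockout of the gene EIF2AK3 for PERK, a stress-activated kinase of the endoplasmic reticulum. The 8 were chosen by symbol, with levels in these same libraries known, from the 12421 symbols of the knockout experiment's table: KRT8, KRT18, TMSB15A, EPHA8, BMP2, SEPP1, GAP43 and PPP2R2C. All 8 have a row there, and all 8 have a row in the table of an earlier experiment, which lists 23284 symbols. The choice rested on the knockout against wild-type difference, so that difference is described below with no p-value for the 8.

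RNA was taken from the ribosome-bearing fractions of a sucrose gradient after translation was halted with cycloheximide, copied with Smart-seq2 and sequenced in 12 libraries, 2 in each of 6 groups. In the first experiment HEK293 cells received 5 ug of a plasmid, either empty vector or one that expresses STING, and were taken after 24 h. STING is an adaptor of cytosolic DNA sensing, and the tables list it by an older symbol, TMEM173. The knockout experiment has the same plasmids, dose and time in wild-type cells and in PERK knockout cells, which gives its groups of wild type with vector, wild type with STING, knockout with vector and knockout with STING. HEK293 is a human embryonic kidney line, so every group shares that background. Whether the knockout cells were 1 clone or a pool, and whether 2 libraries of a group came from separate cultures, is not given in the sources used here. Loss of PERK and any other difference between the knockout and wild-type cell populations cannot be told apart in this design, and the spread that p-values rest on is that of these libraries and may be technical.

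Values are FPKM, fragments scaled to transcript length and library size, and each is a level in the polysome fraction, in which the amount of an RNA and its ribosome loading cannot be told apart. In the knockout experiment values under 1 stand at a floor of 1, so a fold against a group with a library at that floor is a lower bound. The gene for PERK was at that floor except in knockout STING library 2, where it had 1.15, so it cannot check the knockout label. TMEM173 reached 41812 and 40660 FPKM in wild-type cells with STING but 10512 and 7338 in knockout cells with STING, a level 4.62 times as high in wild type. Of 12 embryonic kidney markers, 10 were above the floor, with summed levels of 112 to 134 FPKM in wild-type and 74.8 to 102 in knockout libraries, and PAX8 and OSR1 were not listed. In that list SALL1 and CITED1 were lower in all 4 knockout libraries, as were 5.61% of all genes tested. SIX2, a regulator of kidney progenitors, was called lower with STING (log2 difference -1.24, SE 0.22, limma adjusted p = 0.0439), as were 0.547% of all genes. With vector SIX2 overlapped, at 51.0 and 41.8 FPKM in wild type and 42.5 and 29.7 in knockout. The median differences of the list were -0.02 with vector and -0.08 with STING, against -0.09 and 0.02 over all genes. The part of these shifts in the results below was not tested. Of 12 haematopoietic markers 5 were above the floor, with sums of up to 17.3 FPKM in wild-type and 18.7 in knockout libraries, and PTPRC was not listed.

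The genes come from different lineages. KRT8 and KRT18 are the type II and type I keratins that pair into the first intermediate filaments of simple epithelia. TMSB15A is a small beta thymosin that holds actin monomers, EPHA8 a receptor tyrosine kinase that guides axons on contact with ephrin-A ligands, and BMP2 a secreted ligand that acts through BMP receptors and SMAD proteins. SEPP1, now SELENOP, encodes the plasma selenium carrier made mainly by liver. GAP43 is a protein of the growth cone, and PPP2R2C is a brain-enriched regulatory subunit of protein phosphatase 2A. Clones grown from single cells of one line can differ in such genes whatever was edited.

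Of the 8 genes, 6 were higher in all 4 knockout libraries than in any of the 4 wild-type libraries, BMP2 was lower in all 4, and KRT18 overlapped. Across the 12254 genes tested, 5.79% stood above and 5.61% below in this way. In wild-type cells the genes ranged from GAP43, at the floor, to KRT18, at up to 63.1 FPKM.

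**Figure D1:**
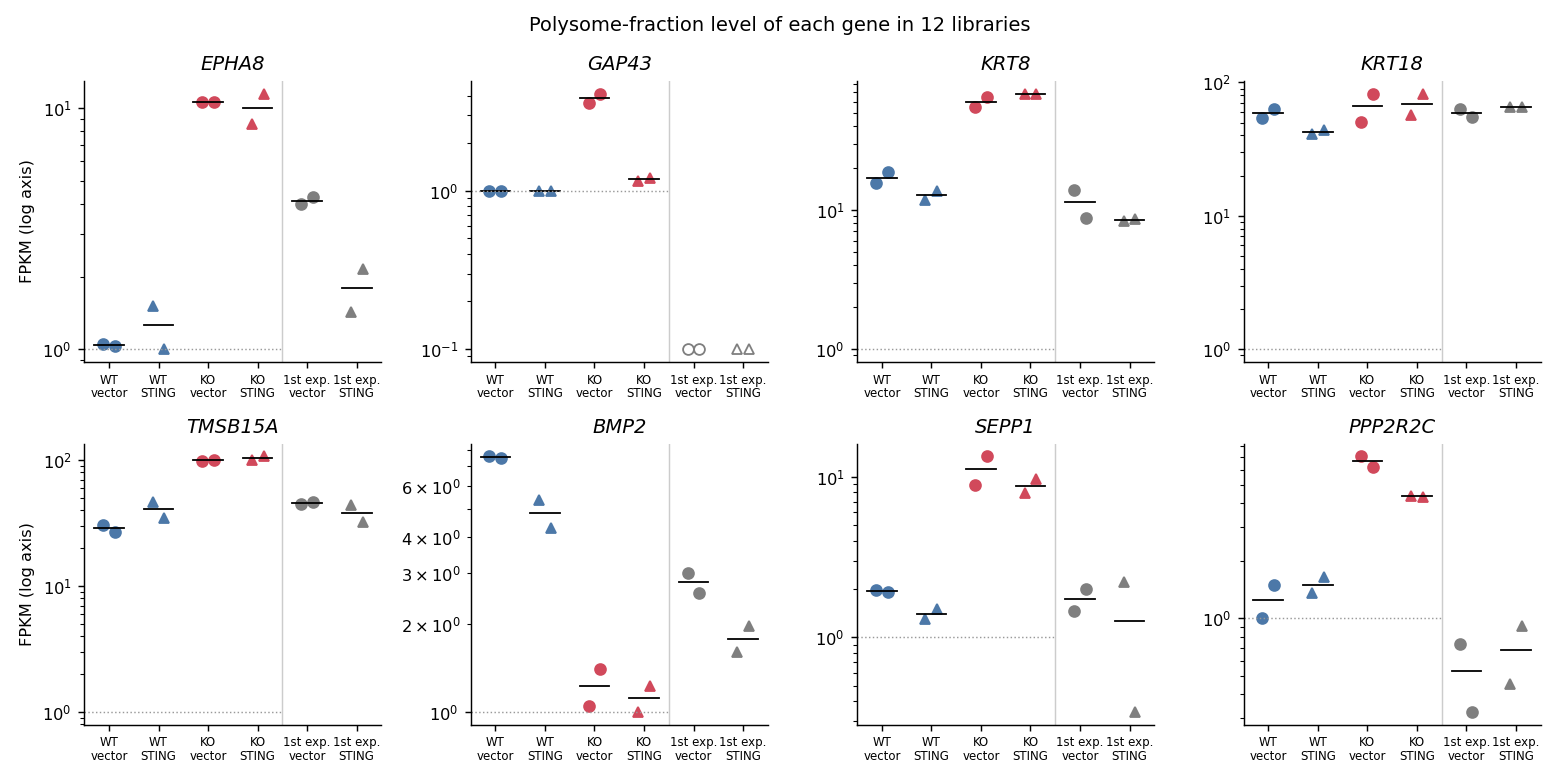
FPKM of each gene in each library on a log axis, with wild-type libraries in blue, knockout libraries in red and the first experiment in grey, circles for vector, triangles for STING and black bars for group means of 2 libraries. The dotted line is the floor of 1 in the knockout experiment, and open symbols at the bottom of the GAP43 panel are values listed at 0; knockout and wild-type points separate in 7 panels and overlap for KRT18.

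KRT8 was several times as high in knockout as in wild-type cells under both plasmids. It stood at 15.6 and 18.6 FPKM in wild type with vector and at 54.7 and 65.2 in knockout with vector. With STING it stood at 11.8 and 13.7 in wild type and at 67.9 and 68.3 in knockout. The ratio of group means was 3.51 with vector and 5.34 with STING (log2 differences 1.75 and 2.33, limma SE 0.19 each). In the first experiment, with unedited cells, KRT8 stood at 13.9 and 8.79 FPKM with vector and 8.34 and 8.66 with STING, which is on the wild-type side.

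KRT18, the filament partner of KRT8, did not separate the genotypes. It stood at 53.9 and 63.1 FPKM in wild type with vector and at 50.4 and 81.9 in knockout with vector, and at 41.2 and 43.9 against 56.6 and 82.2 with STING. The knockout replicates differed from each other by more than the knockout and wild-type means did with vector, which were 66.2 ± 22.3 and 58.5 ± 6.54 (SD, n = 2 each; log2 difference 0.14, SE 0.28). Here KRT18 goes against its description as a gene that marks knockout cells. With STING the knockout libraries were both above the wild-type libraries, at a ratio of means of 1.63 (log2 difference 0.67, SE 0.28).

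The balance of the pair therefore shifted through KRT8. KRT18 was 3.46, 3.39, 3.48 and 3.21 times KRT8 in the wild-type libraries and 0.921, 1.26, 0.833 and 1.20 times KRT8 in the knockout libraries, in the order vector 1, vector 2, STING 1, STING 2. In the first experiment the ratio was 4.59 and 6.23 with vector and 7.88 and 7.60 with STING. All 8 libraries of unedited cells thus held more KRT18 than KRT8 per transcript length, by at least 3.21 times, while the knockout libraries lay on both sides of equality. Reads of KRT18 are not unique throughout: of all 75-base stretches of its longest coding transcript in GENCODE 29, 23.4% also occur in transcripts of 15 other genes, 18.1% in transcripts annotated to KRT8. How the authors divided such reads is not given in the sources used here; for KRT8 the share was 0.296%.

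**Figure D2:**
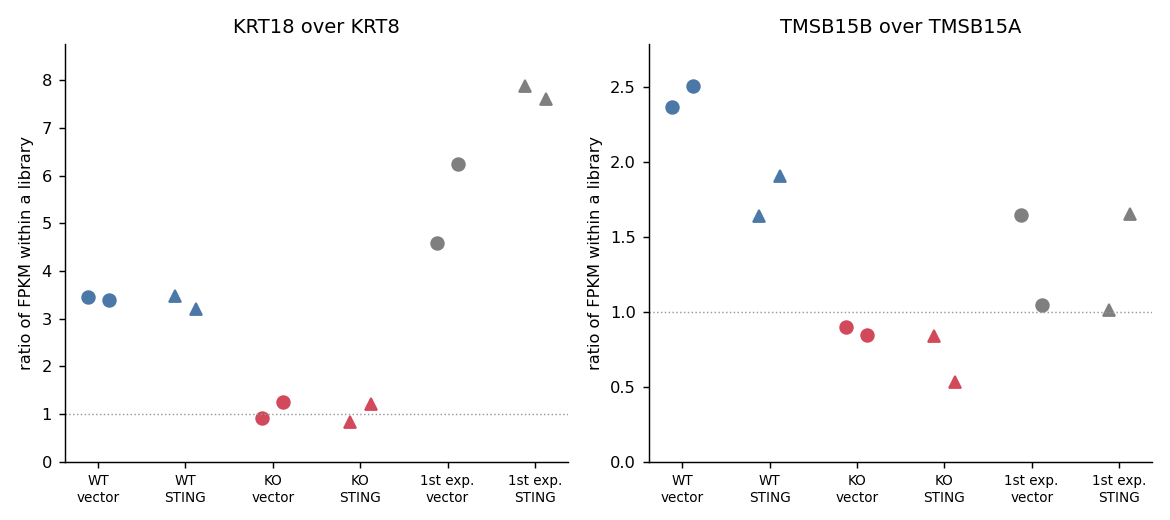
Ratio of KRT18 to KRT8 and of TMSB15B to TMSB15A within each library, in FPKM, with wild type in blue, knockout in red and the first experiment in grey, circles for vector and triangles for STING; the dotted line marks equal levels. Both ratios are lower in every knockout library than in any wild-type library, with KRT18 at 0.833 to 1.26 times KRT8 in knockout and 3.21 to 3.48 times in wild type.

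Other keratins and epithelial genes were then compared. KRT7 and KRT19, the other keratins of simple epithelia, and CDH1 were not listed. Of 14 epithelial markers, 5 were above the floor, none had a mean of 5 FPKM or more, and their summed level was 8.28 to 11.3 FPKM in wild-type and 9.02 to 11.8 in knockout libraries. Among the other 26 intermediate filament genes, 5 could be tested, and limma called 0 in either knockout against wild-type comparison, where 1 with vector and 2 with STING had an unadjusted p under 0.05. Over all 12254 genes, 0.0490% with vector and 1.75% with STING were called and 12.4% and 17.4% had an unadjusted p under 0.05, so 0 calls in a list of this size is what the background gives; this holds for each family below. The median difference of the list was 0 with vector and -0.09 with STING, against -0.09 and 0.02 over all genes. VIM, the filament of mesenchymal cells, was 86.9 and 136 FPKM in wild type and 173 and 223 in knockout with vector, and 102 and 107 against 211 and 319 with STING. VIM did not pass the threshold (log2 differences 0.85 and 1.31, limma adjusted p = 0.303 and 0.0687). The mesenchymal marker list, which VIM dominates, summed to 110 to 167 FPKM in wild-type and 196 to 343 in knockout libraries. Of this list only VIM was higher in every knockout library than in any wild-type library. ZEB2 was lower in every knockout library, and the other listed genes overlapped. The median difference of the mesenchymal list was -0.08 with vector and -0.10 with STING, so the higher sum is not a rise of the list as a whole. The part of this list in the KRT8 difference was not tested.

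TMSB15A was the most abundant gene of the 8 in knockout cells. It stood at 30.6 and 26.9 FPKM in wild type with vector and at 99.4 and 99.8 in knockout with vector, and at 46.8 and 34.8 against 101 and 107 with STING. The ratio of means was 3.47 with vector and 2.55 with STING (log2 differences 1.76 and 1.34, SE 0.19 each), so the genotypes were clearly apart under both plasmids. The first experiment, at 45.2 and 46.4 with vector and 44.1 and 32.2 with STING, lay near the wild-type STING libraries.

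TMSB15B, its near-copy on the same chromosome, allows the pair to be compared. The coding sequences of both genes, from GENCODE 29 on GRCh38, have 138 bases each and are 98.55% identical; they are shown because a coding read separates the genes only where it covers 1 of the 2 differing bases, which are in capitals. The coding part of TMSB15A-201 lies within chrX:102514087-102515163 on the minus strand and that of TMSB15B-204 within chrX:103964523-103965576 on the plus strand.
TMSB15A: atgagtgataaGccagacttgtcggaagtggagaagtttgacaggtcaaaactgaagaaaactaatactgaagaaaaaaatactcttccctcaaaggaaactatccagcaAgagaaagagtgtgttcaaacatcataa
TMSB15B: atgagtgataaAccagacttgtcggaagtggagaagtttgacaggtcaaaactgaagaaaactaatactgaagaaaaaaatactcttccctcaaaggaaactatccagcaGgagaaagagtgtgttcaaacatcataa

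Despite these sequences the 2 genes had separate levels. TMSB15B stood at 72.5 and 67.4 FPKM in wild type with vector and 89.3 and 84.2 in knockout with vector, and at 76.8 and 66.5 against 84.8 and 56.8 with STING. It did not pass the threshold (log2 differences 0.31 and -0.04, limma adjusted p = 0.591 and 0.986). TMSB15A made up 28.5% to 37.9% of the summed level of the pair in wild-type libraries and 52.7% to 65.3% in knockout libraries. In the unedited cells of the first experiment it made up 37.8% and 48.9% with vector and 49.6% and 37.7% with STING. The higher of these lie between the wild-type and knockout ranges. Over whole transcripts 3.93% of the 75-base stretches of TMSB15A occur in TMSB15B, so most of its length tells the genes apart. Among the 12 other beta thymosin and actin monomer genes, limma called 0 in either comparison, with 0 (vector) and 4 (STING) at an unadjusted p under 0.05 and median differences of -0.06 and 0.06.

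EPHA8 had the largest knockout to wild-type ratio of the 8 genes with vector. It stood at 1.05 and 1.03 FPKM in wild type with vector, 1.51 and 1 in wild type with STING, 10.6 and 10.6 in knockout with vector and 8.55 and 11.4 in knockout with STING. Wild-type cells were at or just above the floor, and no knockout library came near them. The ratio of means was 10.1 with vector and at least 7.96 with STING (log2 differences 2.50 and 2.28, SE 0.22 each). The log2 difference with vector was the third highest of the 12254 genes.

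Unedited cells were not always as low. In the first experiment EPHA8 stood at 3.99 and 4.27 FPKM with vector, between the wild-type and knockout levels of the later experiment, and at 1.43 and 2.15 with STING. By rank within a library, EPHA8 lay above 57.8% and 56.7% of the 12421 shared symbols in the vector libraries of the first experiment, above 15.3% and 13.6% in wild type with vector, and above 66.7% and 63.2% in knockout with vector. The tables were normalised separately, so levels across them are set side by side only.

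Of 18 other Eph receptors and ephrins tested, limma called 0 in either comparison, with 3 (vector) and 2 (STING) at an unadjusted p under 0.05 and median differences of 0.09 and 0.18. Among ligands of the EphA class, EFNA2 and EFNA3 were higher in all 4 knockout libraries and EFNA1 lower. EFNA1 stood at 34.9 and 30.7 FPKM in wild type and 17.0 and 18.9 in knockout with vector (log2 difference -0.83, limma adjusted p = 0.186). EPHB2, a receptor for ephrin-B ligands, stood at 1 and 1.56 against 2.32 and 3.19 with vector and did not pass either (log2 difference 0.72, limma adjusted p = 0.425).

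BMP2 was the gene of the 8 that knockout cells had least of. It stood at 7.57 and 7.51 FPKM in wild type with vector and at 1.05 and 1.41 in knockout with vector, and at 5.36 and 4.29 against 1 and 1.23 with STING. Knockout levels were at or near the floor throughout. The wild-type mean was 6.14 times the knockout mean with vector and at least 4.33 times with STING (log2 differences -1.94 and -1.46, SE 0.21 each). The first experiment lay between, at 3.01 and 2.57 with vector and 1.60 and 1.97 with STING.

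Among the other BMP ligands, BMP4 overlapped between the genotypes, while BMP7 and BMP8A were higher in all 4 knockout libraries. BMP4 stood at 24.0 and 29.8 FPKM in wild type and 27.5 and 31.2 in knockout with vector, and BMP7 at 7.52 and 7.95 against 8.37 and 8.62. With STING BMP7 stood at 5.79 and 5.95 against 8.41 and 12.1 (log2 difference 0.69, limma adjusted p = 0.164). Of 35 other genes of the pathway, limma called 0 with vector and 1 with STING, with median differences of -0.10 and -0.03. An unadjusted p under 0.05 was found for 6 with vector (17.1%, against 12.4% of all genes). With STING it was found for 9 (25.7%, against 17.4%). The 1 called was MSX2, a homeobox target of BMP signalling, at 12.9 and 20.3 FPKM in wild type and 6.08 and 5.72 in knockout with STING (log2 difference -1.32, SE 0.24, limma adjusted p = 0.0477). With vector MSX2 stood at 15.8 and 16.5 against 5.39 and 6.11 (limma adjusted p = 0.118). The ID genes, which BMP signalling induces, did not pass: ID2 was higher in all 4 knockout libraries, at 239 and 240 against 142 and 137 FPKM with vector (limma adjusted p = 0.176), while ID1 and ID3 overlapped.

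SEPP1 was higher in knockout cells by the same log2 difference under both plasmids. It stood at 1.98 and 1.90 FPKM in wild type with vector and 8.89 and 13.4 in knockout with vector, and at 1.30 and 1.51 against 7.86 and 9.69 with STING. The ratios of means were 5.74 and 6.25 (log2 differences 2.02 and 2.02, SE 0.24 each). Unedited cells of the first experiment had it at 1.45 and 2.01 with vector and at 2.20 and 0.343 with STING, levels of the wild-type kind with 1 low library. Of the 75-base stretches of its longest coding transcript in GENCODE 29, 63.6% also occur in CCDC152, a gene on the opposite strand that overlaps it. CCDC152 was not listed in the knockout table and stood at 0 in the first experiment, and without a stated strand the 2 genes cannot be told apart.

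Liver markers were compared as well. Of 13 hepatocyte markers, 2 were above the floor, and ALB, TTR and APOB were not listed. The summed level, which counts FGB at the floor of 1, was 4.00 to 4.50 FPKM in wild-type and 6.72 to 13.0 in knockout libraries. The 2 above the floor were the apolipoprotein genes APOA1 (log2 differences 1.11 with vector and 1.11 with STING) and APOA2 (0.48 and 0.89). APOA1 was higher in all 4 knockout libraries, as were 5.79% of all genes tested, while APOA2 overlapped. An unadjusted p under 0.05 was found for 1 of these 2 with vector and for both with STING, against 12.4% and 17.4% of all genes. Neither passed the threshold (limma adjusted p from 0.174 to 0.537), and their part in the SEPP1 difference was not tested. Of the 26 other genes for selenoproteins and selenocysteine insertion, limma called 0 with vector, where 2 had an unadjusted p under 0.05, and 1 with STING, with median differences of 0.01 and 0.02. The 1 was LRP8, a receptor for the SEPP1 protein, at 1.10 and 1 FPKM in wild type and 3.08 and 3.39 in knockout with STING (log2 difference 1.04, SE 0.18, limma adjusted p = 0.0439). With vector LRP8 stood at 1.94 and 1.62 against 2.55 and 2.52 (limma adjusted p = 0.489).

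GAP43 was seen only in knockout cells, and there mainly with vector. It stood at the floor of 1 in all 4 wild-type libraries, at 3.59 and 4.10 FPKM in knockout with vector and at 1.16 and 1.20 in knockout with STING. All 4 libraries of the first experiment list it at 0. The knockout mean was at least 3.85 times the wild-type mean with vector and at least 1.18 times with STING (log2 differences 1.27 and 0.12, SE 0.13 each). As 4 of 8 libraries share 1 value, the SE of GAP43 is drawn down by the floor.

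Among 25 other growth cone and neuronal genes, limma called 0 with vector and 2 higher with STING. With vector 6 of the 25 (24.0%, against 12.4% of all genes) had an unadjusted p under 0.05, all higher. With STING 7 had one (28.0%, against 17.4%), 6 higher and 1 lower. In all 4 knockout libraries 6 of the 25 were higher and 1, MARCKS, was lower, beside 5.79% and 5.61% of all genes. MARCKSL1 (log2 differences -0.22 with vector and -0.53 with STING) and STMN1 (-0.21 and -0.45) overlapped between the genotypes. BASP1 (0.03 and 0.25), at or near the floor, overlapped too. The median differences were 0.03 and 0.34. ENO2, the neuronal enolase, stood at 11.7 and 9.60 FPKM in wild type and 43.9 and 42.5 in knockout with STING (log2 difference 1.93, SE 0.19, limma adjusted p = 0.0238). With vector it stood at 12.2 and 11.3 against 34.8 and 34.1 (log2 difference 1.48, limma adjusted p = 0.0558). MAPT, which encodes tau, stood at 1.19 and 1 against 4.24 and 3.44 with STING (log2 difference 1.20, SE 0.21, limma adjusted p = 0.0439). In knockout cells both ENO2 libraries with STING were above both with vector, unlike GAP43. A separate list of 13 neuronal markers had 5 above the floor, with summed levels of 11.9 to 15.9 FPKM in wild-type and 17.7 to 25.7 in knockout libraries. Of these 5, RBFOX3 and SYP were higher in all 4 knockout libraries and the others overlapped. The log2 differences ran from -0.38 to 0.66 with vector and from -0.48 to 1.11 with STING. The part of this marker list in the GAP43 values was not tested.

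PPP2R2C stood at 1 and 1.50 FPKM in wild type with vector and at 7.04 and 6.24 in knockout with vector, and at 1.35 and 1.66 against 4.36 and 4.34 with STING. Knockout levels were thus above every wild-type library under both plasmids but lower with STING. The knockout mean was at least 5.31 times the wild-type mean with vector and 2.89 times with STING (log2 differences 1.77 and 1.10, SE 0.21 each). The first experiment had 0.735 and 0.324 with vector and 0.455 and 0.914 with STING. The widely expressed B subunits were not higher: PPP2R2A stood at 12.3 and 16.7 FPKM in wild type and 8.79 and 11.5 in knockout with vector, and PPP2R2D at 17.6 and 15.8 against 16.8 and 13.4. Of 20 other phosphatase 2A genes, limma called 0 in either comparison, with 0 (vector) and 5 (STING) at an unadjusted p under 0.05 and median differences of -0.37 and -0.18.

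**Figure D3:**
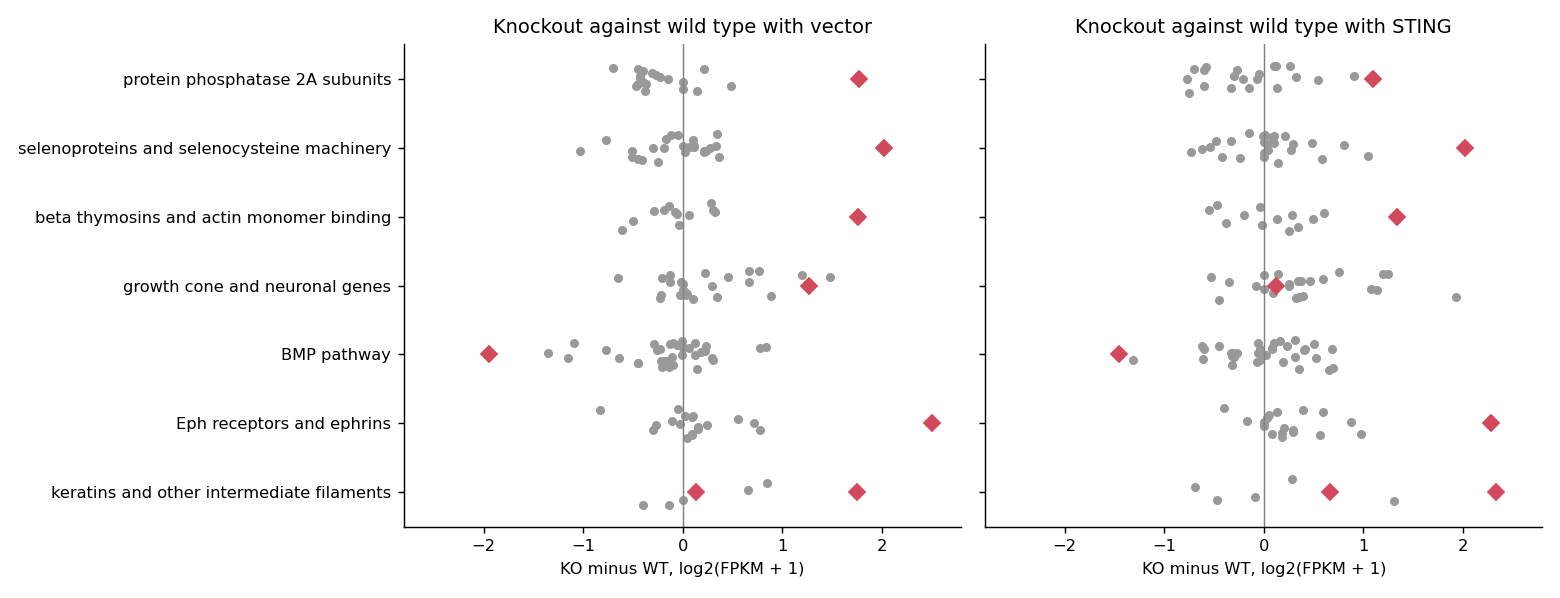
Knockout minus wild-type difference in log2(FPKM + 1) for each tested gene of the 7 pathway lists, with vector on the left and with STING on the right; red diamonds are the 8 genes described and grey points the other genes of each list. EPHA8, KRT8, TMSB15A, BMP2, SEPP1 and PPP2R2C lie outside the range of their own family in both panels, while KRT18 (0.14 with vector) and GAP43 (1.27 with vector) lie within it.

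The threshold used for all genes, an adjusted p under 0.05, is no test of genes chosen on this contrast, and the counts are given as a description. Limma called 4 of the 8 higher (EPHA8, GAP43, KRT8 and TMSB15A) and 1 lower (BMP2) in knockout cells with vector, where 0.0490% of all genes tested were called, 0.0326% higher and 0.0163% lower. The sixth gene called in that comparison was the chemokine CCL5. With STING 5 of the 8 were called higher (EPHA8, KRT8, TMSB15A, SEPP1 and PPP2R2C) and 1 lower (BMP2), where 1.75% of all genes were called, 1.21% higher and 0.547% lower. Under both plasmids EPHA8, KRT8 and TMSB15A were called higher, which held for 0.0245% of all genes, and BMP2 lower, which held for 0.0163%. These counts restate how the genes were chosen. The number of genes called with vector was 0 when symbols at the floor in every library were kept. It was 32 with a mean of at least 5 FPKM. The log2 difference kept its sign in 124 of 125 values computed for the 8 genes under other settings. The exception was KRT18, at -0.21 without knockout vector library 2. With 1 library left out, the genes called with vector numbered 0 to 3 in place of 6. With STING they numbered 128 without knockout vector library 1 and 0 or 1 without any other library, in place of 215. The calls given above for MSX2, LRP8 and MAPT were lost in each of the 8 fits without 1 library, and those for ENO2 and SIX2 in all but that without knockout vector library 1.

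The differences with vector and with STING were both known when the genes were chosen, so neither is a check of the other. For 6 genes (EPHA8, KRT8, TMSB15A, BMP2, SEPP1 and PPP2R2C) both differences exceeded 1 log2 unit in the same direction. GAP43 passed 1 only with vector and KRT18 with neither. The change of the gap, the interaction of STING and knockout, was closest to 0 for SEPP1 at -0.000293 (SE 0.34) and furthest for GAP43 at -1.15 (SE 0.19). PPP2R2C followed at -0.67 (SE 0.30) and KRT8 at 0.58 (SE 0.27), against a median of 0.13 over all genes. Across all 12254 genes limma called 0 interactions, with 474 at an unadjusted p under 0.05.

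**Figure D4:**
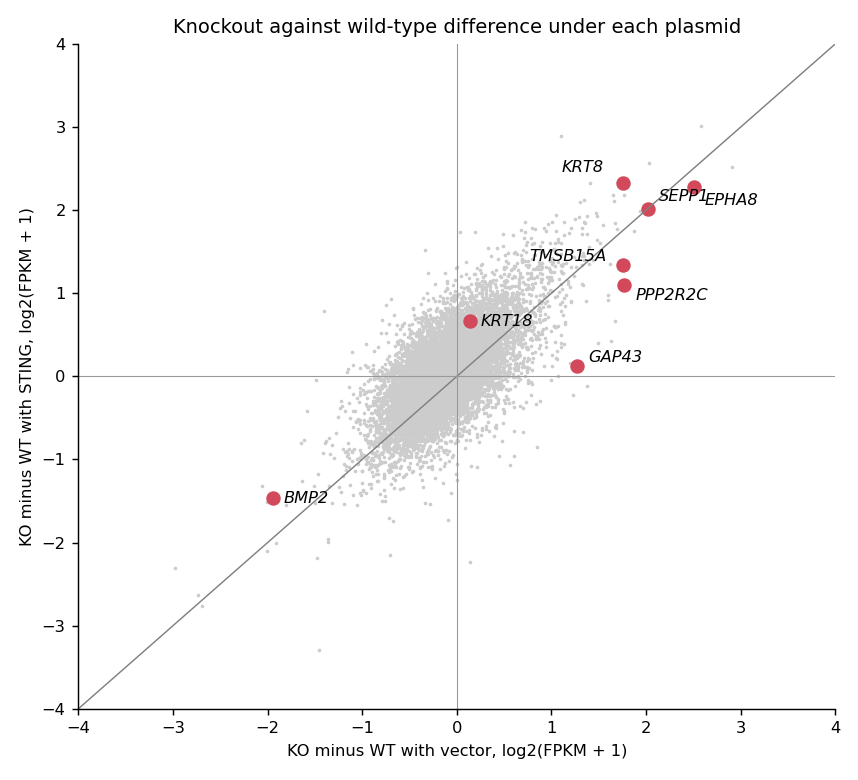
Knockout minus wild-type difference with vector (x) and with STING (y) for the 12254 genes tested, both in log2(FPKM + 1), with the 8 genes in red and the line of equal differences. EPHA8, SEPP1, KRT8, TMSB15A and PPP2R2C lie far from 0 on both axes, BMP2 does so in the other direction, and GAP43 lies near 0 with STING.

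The response to STING, averaged over wild type and knockout, does not use the knockout against wild-type contrast. Levels under both plasmids were known when the genes were chosen, so its p-values in the knockout experiment are no independent test. For GAP43 the wild-type libraries are at the floor, and its average comes from the knockout libraries alone. EPHA8 and PPP2R2C in wild-type cells (up to 1.51 and 1.66 FPKM) and BMP2 in knockout cells (up to 1.41) were also at or near the floor. A fall can hardly show there, which limits their averages. In the knockout experiment limma called 0 of the 8 genes, against 0.00816% of all genes, so 0 calls is what the background gives. An unadjusted p under 0.05 was found for 1 of the 8 (12.5%, against 17.2% of all genes). In the first experiment 6 of the 8 could be tested, since GAP43 is at 0 throughout and PPP2R2C has a mean under 1 FPKM. Limma called 0 of these 6, against 11.8% of all genes (2.51% higher and 9.29% lower). An unadjusted p under 0.05 was found for 1 of the 6 (16.7%, against 27.7% of all genes). Both unadjusted shares are thus below those of all genes. The median gene moved by -0.19 in the averaged effect and by -0.05 in the first experiment on the same log2 scale. The transfected TMEM173 differed 4.62-fold between the genotypes with STING, and its part in any difference between their responses was not tested.

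EPHA8 was the gene with the unadjusted p under 0.05 in the first experiment. Its mean went from 4.13 ± 0.199 FPKM with vector to 1.79 ± 0.511 with STING (SD, n = 2 each), with no overlap (log2 difference -0.89, SE 0.25, 95% interval -1.47 to -0.31). That missed the threshold (limma adjusted p = 0.0598, and 0.0442 to 0.295 over the other settings). In the knockout experiment the averaged effect was 0.02 (SE 0.16, 95% interval -0.34 to 0.39, limma adjusted p = 0.940). Wild-type levels there were at or just above the floor, where a fall can hardly show, and the knockout libraries with STING, 8.55 and 11.4, lay on both sides of those with vector. The difference between the experiments was not tested.

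GAP43 was the gene with the unadjusted p under 0.05 in the knockout experiment. In knockout cells its mean with vector was 3.26 times that with STING (log2 effect of STING -1.15, SE 0.13). In wild-type cells the effect was 0 because every library stood at the floor. The average of -0.58 (SE 0.09) had a limma adjusted p of 0.216. That average comes from the knockout libraries alone, among them the vector libraries that chose the gene. Its p-value is therefore not an independent test. In the other 7 genes the averaged effect ran from -0.32 for BMP2 to 0.27 for TMSB15A, with limma adjusted p from 0.312 to 0.940.

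TMSB15A and KRT8 had unlike values in the 2 genotypes. TMSB15A was higher in both wild-type libraries with STING than in both with vector (log2 effect 0.48, SE 0.19) and nearly level in knockout cells (0.06, SE 0.19). Its averaged effect was 0.27 (limma adjusted p = 0.341), and in the first experiment the effect was -0.28 (limma adjusted p = 0.380). KRT8 had an effect of -0.39 in wild-type and 0.19 in knockout cells, and of -0.35 in the first experiment (limma adjusted p = 0.414). The wild-type value of KRT8 is close to the median gene in wild-type cells, which moved by -0.27.

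For the other genes, BMP2 had negative effects throughout, of -0.56 in wild-type cells, -0.07 in knockout cells, which were at or near the floor, and -0.44 in the first experiment (limma adjusted p = 0.288). SEPP1 had -0.29 in both genotypes and -0.39 in the first experiment (limma adjusted p = 0.604). KRT18 had -0.45 in wild-type cells, 0.08 in knockout cells and 0.15 in the first experiment (limma adjusted p = 0.536). PPP2R2C had 0.16 in wild-type and -0.51 in knockout cells (SE 0.21 each).

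**Figure D5:**
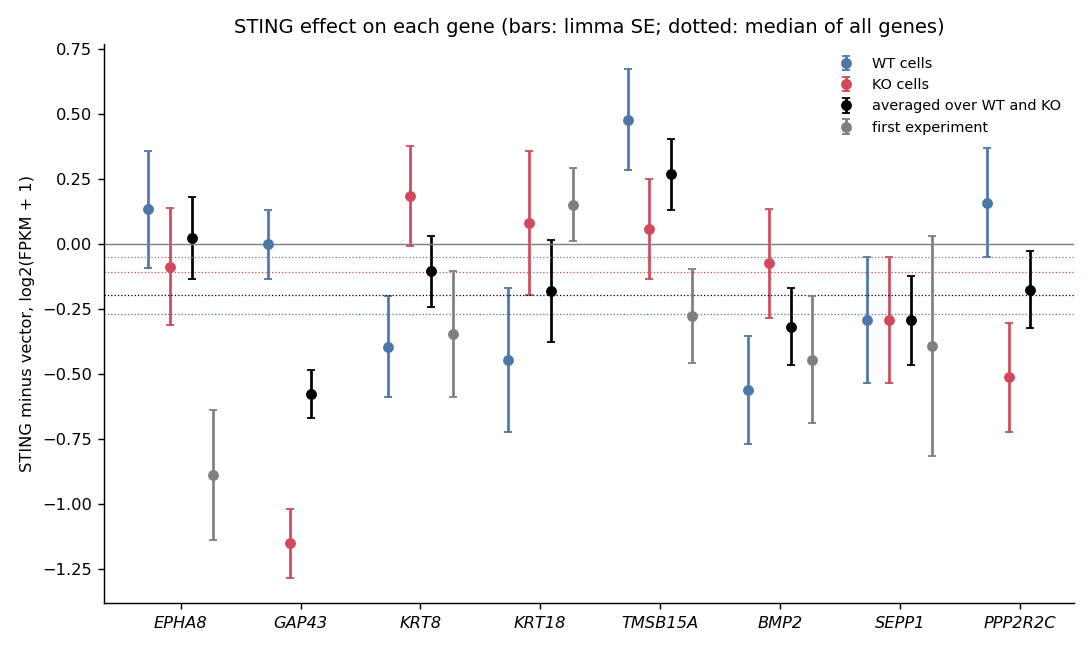
STING minus vector in log2(FPKM + 1) for each gene, with wild-type cells in blue, knockout cells in red, the average of both in black and the first experiment in grey; bars are limma SE and dotted lines the median gene of each comparison. GAP43 in knockout cells (-1.15) and EPHA8 in the first experiment (-0.89) lie farthest from 0, and GAP43 and PPP2R2C have no value in the first experiment.

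Partner genes were called more often in the first experiment, where 9.29% of all genes were lower and 2.51% higher with STING. Of 23 selenoprotein genes 9 fell and 0 rose, among them GPX1 and GPX4, while SEPP1 was not called. VIM rose 1.62-fold, and KRT8 and KRT18 were not called. Of 28 BMP pathway genes ID2 and HEY1 rose, of 11 Eph genes EFNA1 fell, of 14 growth cone genes TUBB2B and STMN1 passed in opposite directions, of 12 actin monomer genes TMSB10 and PFN2 fell, and of 20 phosphatase 2A genes limma called 0, with 1 at an unadjusted p under 0.05. Each of these list calls was lost without STING library 1 and without STING library 2, where the 1117 calls over all genes were 42 and 38. In the averaged effect of the knockout experiment limma called 0 genes in each of the 7 lists, with 0 to 6 per list at an unadjusted p under 0.05, against 17.2% of all genes.

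Genes with the most similar profiles over the 8 libraries of the knockout experiment were sought among 34 genes with an SD of at least 1 on the log2 scale. All points share the same libraries and the genotype gap, so the Pearson r is a description. EPHA8 was most like BST2 (r = 0.980), KRT8 like HLA-DPA1 (0.992), SEPP1 like MAGEA3 (0.988), TMSB15A like EPHA8 (0.979) and PPP2R2C like EPHA8 (0.957). MAGEA3, a cancer-testis antigen, stood at the floor in all 4 wild-type libraries and at 7.16 to 19.7 FPKM in knockout libraries. BMP2 was most like IFITM3 (r = 0.961), IFITM1 and CCL5. IFITM3, an interferon-induced membrane protein, stood at 72.6 to 113 FPKM in wild-type and 7.15 to 15.5 in knockout libraries. GAP43 (SEPP1, r = 0.722) and KRT18 (LGALS3BP, r = 0.787) had no profile as close.

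Base composition of the start regions varied widely among the genes. RefSeq windows on GRCh38.p14 were matched for 6 of the 8 genes, and the 250 bases before the start are printed for 3 that were higher in knockout cells under both plasmids and range from rich to poor in G and C. Capitals mark matches, on either strand, to TATAAA (the TATA box), GGGCGG (a GC box), TGACTCA (an AP-1 site), TGACGTCA (a cAMP response element) or CCAAT (the CCAAT box), none of which overlap in these 3 windows. A match is only a description of the letters. The windows lie at chr1:22563239-22563488 (plus strand) for EPHA8, chr5:42811893-42812142 (minus strand) for SEPP1 and chr12:52926470-52926719 (minus strand) for KRT8.
EPHA8: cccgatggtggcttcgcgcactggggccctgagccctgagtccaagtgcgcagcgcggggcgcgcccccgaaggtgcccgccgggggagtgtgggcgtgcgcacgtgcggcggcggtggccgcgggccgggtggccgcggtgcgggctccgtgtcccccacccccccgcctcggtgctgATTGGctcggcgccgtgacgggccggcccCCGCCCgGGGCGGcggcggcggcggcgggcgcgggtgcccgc
SEPP1: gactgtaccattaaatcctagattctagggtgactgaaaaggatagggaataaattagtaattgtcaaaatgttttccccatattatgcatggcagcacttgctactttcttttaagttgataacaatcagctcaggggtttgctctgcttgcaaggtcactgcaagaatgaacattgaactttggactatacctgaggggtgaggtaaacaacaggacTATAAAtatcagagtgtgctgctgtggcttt
KRT8: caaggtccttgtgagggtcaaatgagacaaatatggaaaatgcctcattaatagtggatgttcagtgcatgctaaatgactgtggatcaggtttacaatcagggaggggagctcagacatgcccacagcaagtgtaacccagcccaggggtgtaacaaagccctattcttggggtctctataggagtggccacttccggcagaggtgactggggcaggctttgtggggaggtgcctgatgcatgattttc

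The EPHA8 window is 83.2% G or C, with 42 CpG, 2 GGGCGG and 1 CCAAT on the reverse strand. The SEPP1 window is 39.6% G or C, with no CpG and a TATAAA that begins 31 bases before the start. The 1 window matched for KRT8 is 50.4% G or C, with 1 CpG and none of the motifs. Whether these cells start KRT8 transcripts there was not tested, so it may not stand for the gene's main start. The TMSB15A window (68.4% G or C) holds 2 GGGCGG and 1 CCAAT, the first of 5 windows of PPP2R2C (86% G or C) 5 GGGCGG, some overlapping, and that of GAP43 (51.6%) 1 CCAAT. The EPHA8 window, the TMSB15A window and the first PPP2R2C window are thus rich in G and C, with GGGCGG in each. The other PPP2R2C windows ranged from 53.2% to 77.6% G or C, and windows 4 and 5 held no GGGCGG. PPP2R2C was also close in profile to SEPP1 (r = 0.948), whose window is poor in G and C. A link between profile and base composition was not tested. Among 35116 windows of this length the median is 58% G or C, and TATAAA occurs in 10.7%, GGGCGG in 42.6%, TGACTCA in 4.20%, TGACGTCA in 1.65% and CCAAT in 32.0%. KRT18 and BMP2 were not matched.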

How the data were processed

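Polysome-fraction RNA was measured in 12 libraries in 6 groups of 2, grouped and numbered by sample title. The authors made FPKM values with TopHat2 2.1.1 and Cufflinks 2.2.1 on hg19, per the submitters' processing notes; their annotation, filters and strand handling were not given in the sources used here. Deposited values of the knockout experiment name no unit; they look like FPKM raised to at least 1, and were taken as such; 13.1% to 18.1% of symbols stand at that floor. No counts are given, so depth is unknown.

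Here limma 3.58.1 (R 4.3.3) was run on log2(FPKM + 1) with trend and robust estimation, two-sided, adjusted by Benjamini-Hochberg at 0.05 over 12254 genes (knockout experiment) and 9464 genes (first experiment) with a mean of at least 1 FPKM; 167 symbols at the floor in every library were left out. In the knockout experiment the floor puts every mean at 1 or more, so only those 167 were removed. Fold changes on this scale understate changes of low genes. The script was tested on simulated data. Genes named are the 8, fixed partners from 7 pathway and 6 marker lists, list genes past the threshold in both knockout comparisons (0 were) and the 3 closest profiles of each gene; other list genes were named after their values were seen. The 8 genes and the lists were chosen with earlier results of these data known. Alternatives covered scaling, pseudocount, filters, estimation, replicate block and leaving out each library.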

Additional observations from a re-analysis of the deposited data

Results flagged for a closer look

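KRT8 was the gene of the 8 whose STING effect ran in opposite directions in the 2 genotypes in every library: both wild-type libraries with STING (11.8 and 13.7 FPKM) lay below both with vector (15.6 and 18.6), and both knockout libraries with STING (67.9 and 68.3) lay above both with vector (54.7 and 65.2). The effects differed by 0.58 on the log2 scale (SE 0.27). That difference was not tested, because it shares the vector libraries that chose the gene. With median-of-ratios scaling the wild-type effect was -0.03 and with quantile normalization -0.02.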

How the results depend on the processing

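The knockout against wild-type counts moved with the settings. With vector (6 genes) they were 25 with median-of-ratios scaling, 24 with quantile normalization, 17 with a pseudocount of 0.1 and 32 with a mean of at least 5 FPKM. They were 0 with the 167 symbols at the floor in every library kept, and 0 with no trend or robust estimation. With STING (215 genes, 148 higher and 67 lower) they were 460 with median-of-ratios scaling, 468 with quantile normalization (265 higher and 203 lower) and 356 with a mean of at least 5. Without 1 library the count with vector ranged from 0 to 3, with 0 without either wild-type vector library, either wild-type STING library or knockout vector library 1, and 1 without knockout vector library 2. With STING it ranged from 0 to 128, with 128 without knockout vector library 1, 1 without wild-type STING library 2 or knockout STING library 2, and 0 otherwise.

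The STING effect called 1 to 2 genes in wild-type cells, 1 to 3 in knockout cells and 1 to 2 in the average when 1 library was left out, against 1 in each with all libraries, and 2 in the average with a mean of at least 5. In the first experiment (1117 genes, 238 higher and 879 lower) it called 602 with no filter, 17 with no trend or robust estimation, and 38 to 818 without 1 library; with quantile normalization 347 were higher and 432 lower.

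In the averaged STING effect KRT8 turned from -0.10 to 0.17 and 0.20, and KRT18 from -0.18 to 0.10 and 0.12, with median-of-ratios scaling and quantile normalization, which move the median gene to about 0. EPHA8 turned from 0.02 to -0.0061 with a pseudocount of 5 and to -0.058 without wild-type STING library 1 and -0.072 without knockout STING library 2 (range over fits without 1 library -0.072 to 0.12). SEPP1 in the first experiment ranged from -1.02 to 0.23 without 1 library. The cause was not tested.

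No label ties replicate numbers to a shared culture or day. Deviations of same-numbered libraries correlated at 0.042 to 0.53 over 6 pairs of groups, above 0 in 6 and over 0.1 in 5, so the numbers may pair the libraries in part but did not in every pair. With a replicate block the counts were 105 with vector, 851 with STING, 2 in knockout cells and 2 in the average, and EPHA8 in the first experiment passed (limma adjusted p = 0.0442).

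Values under 1 FPKM are hidden in the knockout experiment, which limits GAP43, EPHA8, BMP2 and PPP2R2C most.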
